A study of Mus musculus with 9 samples.

Results

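The cytosolic ribosomal protein genes encode the proteins of the large and small subunits of the ribosome that translates nuclear messenger RNAs. They were taken from the deposited count table as the protein-coding rows whose symbol begins with Rpl or Rps and a digit, together with Rplp0, Rplp1, Rplp2 and Rpsa. Rps6k kinases, Rps19bp1, pseudogenes and paralogs whose symbol ends in l, or in l and a digit, were left out. This gave 78 genes of the 21703 rows, 46 of the large subunit and 32 of the small subunit. Fau, which encodes a small subunit protein fused to a ubiquitin-like protein, and Rack1, which encodes a scaffold protein of the small subunit, fall outside the symbol rule and are described beside it. Of the 78 genes, 77 passed the filter on low counts. The other one was Rps27rt, a retrotransposed copy of Rps27, which had between 0 and 6 reads in each of the 9 livers.

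The study measured total RNA of whole mouse liver by RNA-seq in 9 C57BL/6J mice aged 4 weeks. The c-Myc 48 h group was 3 livers that carried R26-M2-rtTA and, as a second allele, Col-TetOP-c-Myc-ires-mCherry, harvested 48 h after an intraperitoneal injection of 0.2 ml of doxycycline (Dox) at 2.0 mg/ml. The Mycl 48 h group was 3 livers with R26-M2-rtTA and, in place of the c-Myc allele, Col-TetOP-Mycl-ires-mCherry, with the same injection and time. The no dox group was 3 untreated livers of the Mycl genotype. In these mice the reverse tetracycline transactivator is made from the R26 locus, and doxycycline lets it switch on a transgene that encodes the MYC family factor and the red reporter mCherry on a single transcript. All 9 mice therefore carried the transactivator and an inducible transgene, and no liver received doxycycline without an inducible MYC factor. No uninduced liver of the c-Myc line was given, so in the comparison of c-Myc 48 h with no dox livers the line, the doxycycline and the factor cannot be told apart.

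A ribosome needs each of its proteins in matched amounts, and cells usually adjust the levels of their messenger RNAs together. These messengers begin with a cytosine followed by a run of pyrimidines, the terminal oligopyrimidine (TOP) motif, through which mTOR signalling and the protein LARP1 control their translation. MYC factors bind E-box sequences as dimers with MAX, and ribosome production is one of the best known processes that they raise.

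Total counts ranged from 14088780 to 16482480 in c-Myc 48 h livers, from 11013412 to 18887413 in Mycl 48 h livers and from 14043323 to 20079232 in no dox livers. The libraries matched their labels. Myc had 81.8 to 269.8 CPM (reads of the gene per 1000000 counts of the library, after scaling by edgeR's trimmed mean of M-values) in c-Myc 48 h livers, 4.61 to 14.2 CPM in Mycl 48 h livers and 4.05 to 12.7 CPM in no dox livers. Mycl had 5.70 to 7.05 CPM in c-Myc 48 h livers, 49.1 to 233.5 CPM in Mycl 48 h livers and 10.8 to 11.6 CPM in no dox livers. The reporter mCherry had 76.4 to 281.9 CPM in c-Myc 48 h livers, 52.3 to 269.8 CPM in Mycl 48 h livers and 0.316 to 1.10 CPM in no dox livers. All 15 hepatocyte markers were detected in every library, and their summed level was 92500 to 138700 CPM in c-Myc 48 h livers, 114400 to 175400 CPM in Mycl 48 h livers and 173800 to 194100 CPM in no dox livers.

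The library of Mycl 48 h replicate 1 stood apart from the other 8. Among tested genes outside the ribosomal protein set whose longest annotated transcript is under 800 nt, the median log2 difference from the no dox mean was 1.33 in Mycl 48 h replicate 1, against -0.04 and 0.17 in the other two Mycl 48 h livers and -0.08 to 0.07 in the c-Myc 48 h livers. Genes with a transcript of 1500 nt or more had a median of -0.08 in Mycl 48 h replicate 1. Most ribosomal protein messengers are short: 65 of the 77 tested genes have no annotated transcript as long as 1500 nt. The main counts, medians and tests of ribosomal protein genes that rest on the Mycl 48 h group are therefore given with and without this library.

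Ribosomal protein messengers took a larger share of all reads in both induced groups than in no dox livers. The 78 genes together took 1.71%, 2.12% and 1.66% of counts in c-Myc 48 h replicates 1 to 3. They took 3.35%, 1.12% and 1.53% in Mycl 48 h replicates 1 to 3, and 0.857%, 0.688% and 0.720% in no dox replicates 1 to 3. Each of the 6 induced livers was above each of the 3 no dox livers. The means were 1.83% ± 0.249 in c-Myc 48 h livers, 2.00% ± 1.19 in Mycl 48 h livers and 0.755% ± 0.0898 in no dox livers (SD, n = 3 each). Without replicate 1 the Mycl 48 h mean was 1.33%, and both remaining Mycl 48 h livers were below each of the 3 c-Myc 48 h livers. In bulk tissue, more cells with many ribosomal messengers and more such messengers per cell cannot be told apart.

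Gene by gene, the median ribosomal protein gene was higher than the no dox mean by 0.89, 1.01 and 0.90 log2 units in c-Myc 48 h replicates 1 to 3. The same median was 2.02, 0.44 and 0.90 in Mycl 48 h replicates 1 to 3, and 0.17, -0.09 and -0.07 in no dox replicates 1 to 3. The 3 c-Myc 48 h livers were close to each other, whereas the Mycl 48 h livers were spread widely. Mycl 48 h replicate 1 was above every c-Myc 48 h liver for 74 of 77 genes, all but Rpl29, Rpl30 and Rps4x. Mycl 48 h replicate 2 was the lowest of the 3 Mycl 48 h livers for 77 of 77 genes and was below every c-Myc 48 h liver for 74. Replicate 3 fell within the range of the c-Myc 48 h livers for 35 genes, above it for 21 and below it for 21. With replicate 1 included, the standard deviation of CPM was smaller over the c-Myc 48 h livers than over the Mycl 48 h livers for 77 of 77 genes. Mycl 48 h replicate 1 was the highest of the 9 livers for 73 genes, and this comparison of spread was not made without it. None of these orders was counted over all tested genes, so they may not be particular to the set. Reporter levels did not follow the order of the medians. The mCherry level was 220.8, 281.9 and 76.4 CPM in c-Myc 48 h replicates 1 to 3 and 52.3, 145.6 and 269.8 CPM in Mycl 48 h replicates 1 to 3. The Mycl 48 h liver with the most ribosomal protein reads, replicate 1, had the least mCherry. Without it, Mycl 48 h replicate 2 was below replicate 3 in both mCherry and the ribosomal protein median. The c-Myc 48 h livers had the same order by mCherry as by share of counts, with replicate 3 lowest and replicate 2 highest. By the median, c-Myc 48 h replicate 1 was lowest. The relation to the reporter was not tested.

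**Figure D1:**
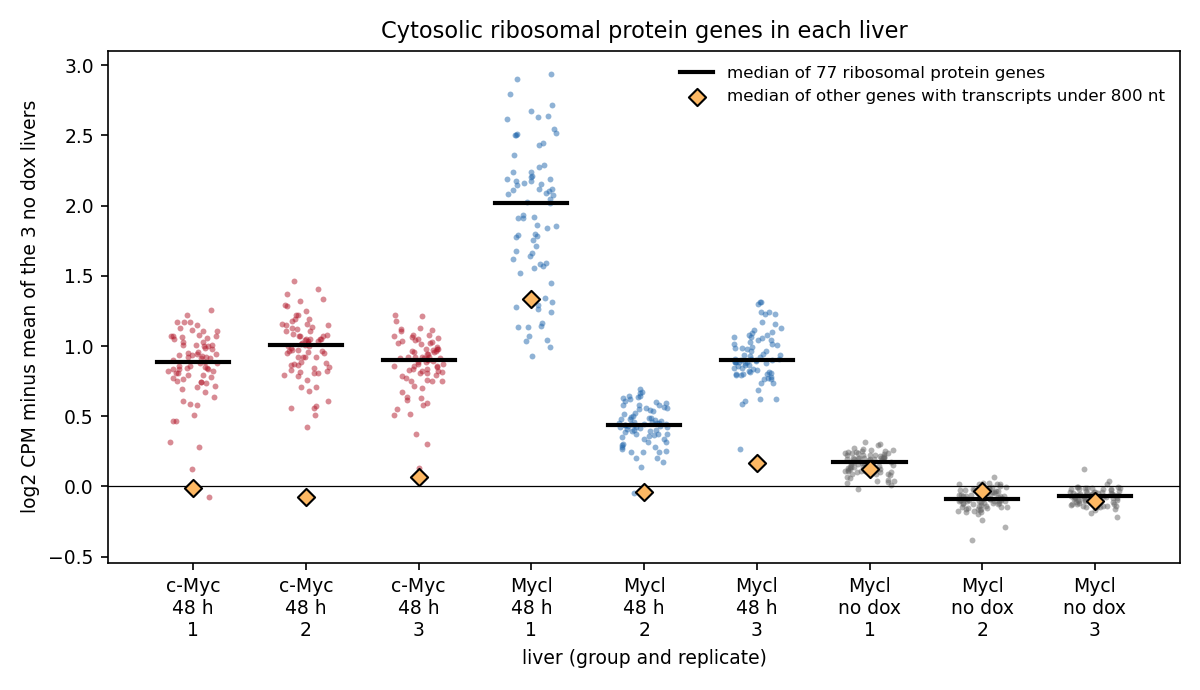
Difference of each of the 77 tested ribosomal protein genes from its mean over the 3 no dox livers, in log2 CPM (points), with the median of the set (bars) and the median of other tested genes with transcripts under 800 nt (diamonds), by liver. The set spans 0.93 for Rpl29 to 2.94 for Rpl13a in Mycl 48 h replicate 1, where the diamond is at 1.33, and the diamonds of the other 8 livers lie between -0.10 and 0.17.

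The first comparison set c-Myc 48 h livers against no dox livers. With edgeR's quasi-likelihood test and Benjamini-Hochberg adjustment over 12651 tested genes, 33 of the 77 ribosomal protein genes rose and 0 fell at an adjusted p under 0.05. In this comparison 11.8% of all tested genes rose and 8.88% fell. The log2 fold change was positive for 77 of 77 genes, with a median of 0.92 beside a median of -0.05 for all tested genes. The fit shares its estimate of spread over the 9 livers, so the spread of the Mycl 48 h group enters it. When Mycl 48 h replicate 1 was left out, 75 of the 77 genes rose, where 18.8% of all tested genes rose, and the median was 0.97. All 33 genes were among those 75. The remaining pair was Rpl34, at a log2 fold change of 0.39 (SE 0.18, adjusted p = 0.119), and Rplp0, at 0.42 (SE 0.21, adjusted p = 0.145). The groups did not overlap for 75 of the 77 genes, where 22.6% of all tested genes were higher in every c-Myc 48 h liver. The exceptions were again Rpl34 and Rplp0. The count of 33 also moved with single livers, and the share of all tested genes that rose is given in brackets. It was 11 without no dox replicate 2 (7.11%) or 3 (7.34%), and 20 without no dox replicate 1 (7.61%) or c-Myc 48 h replicate 1 (8.37%). The count was 16 without c-Myc 48 h replicate 2 (7.03%) and 55 without Mycl 48 h replicate 2 (13.1%).

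The second comparison set Mycl 48 h livers against the same no dox livers. In the edgeR test 24 of the 77 genes rose and 0 fell, where 2.24% of all tested genes rose and 0.964% fell. The log2 fold change was positive for 77 of 77 genes, and its median was 1.29 beside 0.01 for all tested genes. Without replicate 1, 56 of the 77 genes rose, where 3.68% of all tested genes rose, and the median was 0.74. The 24 genes were all among those 56. They were also all among the 33 that rose in c-Myc 48 h livers, and both comparisons use the same 3 no dox livers. Groups did not overlap for 73 of the 77 genes with or without replicate 1, where 13.2% of all tested genes were higher in every Mycl 48 h liver with replicate 1 and 20.6% without it. The genes whose groups overlapped were Rpl9, Rpl35a, Rps14 and Rps27. The count of 24 depended on single livers, and so did the share of all tested genes that rose, given in brackets. It was 0 without any 1 of the no dox livers (0.133% to 0.641%). The count was 1 without Mycl 48 h replicate 3 (0.861%) and 76 without Mycl 48 h replicate 2 (4.21%). It was 6 without c-Myc 48 h replicate 1 (1.38%) and 14 without c-Myc 48 h replicate 3 (2.11%).

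The third comparison set c-Myc 48 h livers directly against Mycl 48 h livers, which tests the difference between the 2 induced groups. Each group came from its own line, and no uninduced c-Myc liver was given, so line and factor cannot be told apart here either. With edgeR, 0 of the 77 genes rose and 0 fell, where 4.14% of all tested genes rose and 2.63% fell. At an unadjusted p under 0.05, 3 genes were lower in c-Myc 48 h livers, namely Rpl34, Rplp0 and Rps21. At that threshold 3410 of the 12651 tested genes passed in either direction, a larger share than in the set. DESeq2 and limma-voom also called 0. The median log2 fold change was -0.34, with 10 genes positive and 67 negative. Without Mycl 48 h replicate 1 the median was 0.22, with 70 genes positive and 7 negative. The test then again called 0 in each direction, where 4.58% of all tested genes rose and 3.73% fell. The smallest adjusted p was 0.0679, for Rpl35, at a log2 fold change of 0.44. Every c-Myc 48 h liver was above both remaining Mycl 48 h livers for 21 genes, where 21.2% of all tested genes were. The direction of the difference between the 2 induced groups therefore depended on 1 liver, and no gene passed the test with it or without it.

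**Figure D2:**
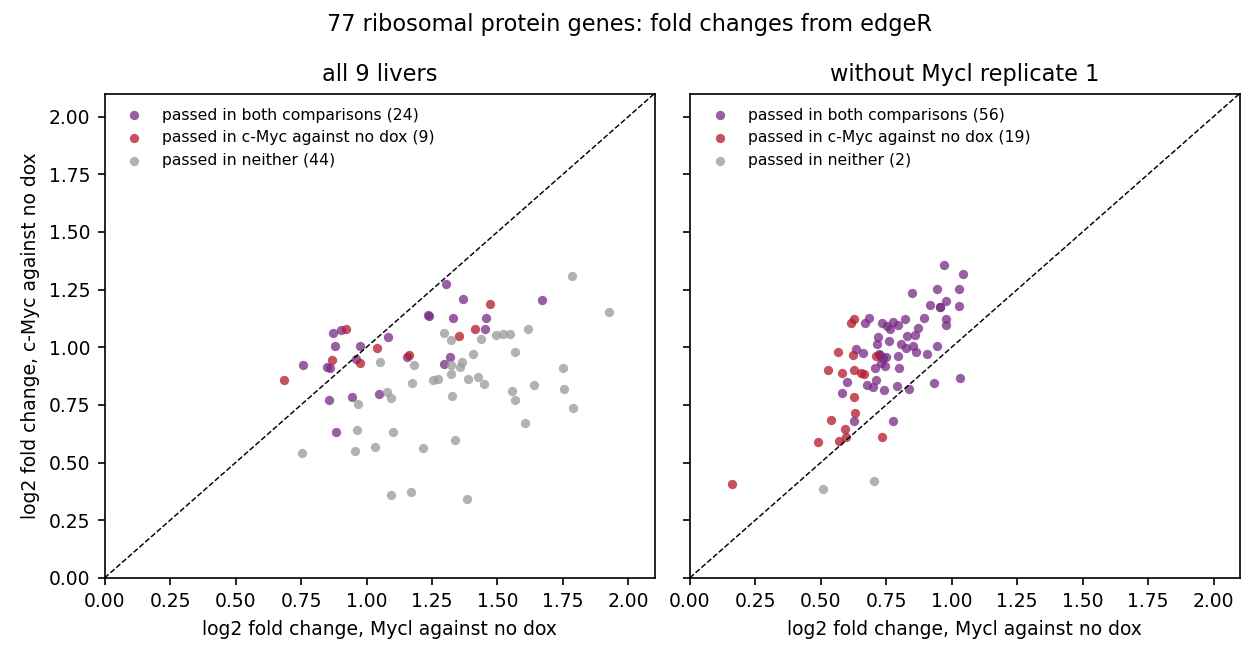
Log2 fold changes (edgeR) of the 77 tested ribosomal protein genes, c-Myc 48 h against no dox on the vertical axis and Mycl 48 h against no dox on the horizontal axis, with all 9 livers (left) and without Mycl 48 h replicate 1 (right). Colours mark the genes that passed in both comparisons (24 left, 56 right), in c-Myc 48 h only (9 and 19) or in neither (44 and 2), the dashed line marks equal values, and both axes share the no dox livers.

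Genes of both subunits rose. Of the 46 large subunit genes 23 rose in c-Myc 48 h livers, at a median log2 fold change of 0.93, and of the 31 tested small subunit genes 10 rose, with a median of 0.92. The share of all tested genes that rose was 11.8%. With Mycl 48 h replicate 1 left out, 44 of the 46 large and 31 of the 31 small subunit genes rose in c-Myc 48 h livers, with medians of 0.97 and 0.97, where 18.8% of all tested genes rose. In Mycl 48 h livers 17 large and 7 small subunit genes rose, with medians of 1.16 and 1.34, where 2.24% of all tested genes rose. The same counts without replicate 1 were 33 and 23, with medians of 0.72 and 0.76, where 3.68% of all tested genes rose. The difference between the subunits was not tested. Within a liver, the difference from no dox varied little with the length of the gene's longest annotated transcript: over the 77 genes Spearman's rho was 0.081 to 0.116 in c-Myc 48 h livers and -0.041 to 0.035 in Mycl 48 h livers. With the median annotated transcript it was -0.209 in Mycl 48 h replicate 1. These genes share their libraries and are not independent replicates.

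The acidic stalk of the large subunit recruits the elongation factors and is built on Rplp0, which anchors dimers of Rplp1 and Rplp2. Rplp1 had 520.3, 601.5 and 552.8 CPM in c-Myc 48 h livers, 1087, 444.0 and 621.1 CPM in Mycl 48 h livers and 313.2, 264.8 and 284.4 CPM in no dox livers. Every induced liver was above every no dox liver. Rplp1 rose in c-Myc 48 h livers by 0.96 log2 units (SE 0.29, adjusted p = 0.0386, edgeR) and in Mycl 48 h livers by 1.32 (SE 0.29, adjusted p = 0.0393), or by 0.94 without replicate 1 (adjusted p = 0.0183). Rplp2 rose likewise, by 0.96 in c-Myc 48 h and 1.15 in Mycl 48 h livers, the second 0.85 without replicate 1. Rplp0 did not pass the test in either comparison. It had 284.8, 458.5 and 430.4 CPM in c-Myc 48 h livers, 1092, 388.9 and 558.0 CPM in Mycl 48 h livers and 346.0, 277.0 and 283.9 CPM in no dox livers. One c-Myc 48 h liver was below a no dox liver, while the Mycl 48 h livers were all above the no dox livers. Its log2 fold change was 0.37 in c-Myc 48 h livers (SE 0.34, adjusted p = 0.477) and 1.17 in Mycl 48 h livers (SE 0.35, adjusted p = 0.0982). The Mycl 48 h value was 0.70 without replicate 1 (adjusted p = 0.114). Rplp0 is a common reference gene in quantitative PCR.

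Rpl3 and Rpl4 are core proteins of the large subunit, Rpl3 near the peptidyl transferase centre and Rpl4 in the wall of the exit tunnel. Rpl3 had 314.6, 375.8 and 321.9 CPM in c-Myc 48 h livers, 589.2, 249.7 and 326.4 CPM in Mycl 48 h livers and 163.6, 143.5 and 156.1 CPM in no dox livers. It rose by 1.13 log2 units in c-Myc 48 h livers (SE 0.28, adjusted p = 0.0185) and by 1.33 in Mycl 48 h livers (SE 0.28, adjusted p = 0.0358), and by 0.95 without Mycl 48 h replicate 1 (adjusted p = 0.0145). Rpl4 had 734.9, 786.4 and 746.1 CPM in c-Myc 48 h livers, 826.8, 574.8 and 764.6 CPM in Mycl 48 h livers and 416.8, 392.5 and 392.5 CPM in no dox livers. Rpl4 was one of the genes for which Mycl 48 h replicate 1 was little above the others, and its log2 fold changes were 0.92 in c-Myc 48 h livers and 0.85 in Mycl 48 h livers, the second 0.80 without replicate 1. Rpl29, a small basic protein of the large subunit, had 63.9, 72.1 and 61.9 CPM in c-Myc 48 h livers, 66.2, 48.0 and 62.3 CPM in Mycl 48 h livers and 34.4, 35.3 and 34.6 CPM in no dox livers. It had the smallest adjusted p of the set in the c-Myc 48 h comparison, 0.00208, at a log2 fold change of 0.92 (SE 0.14). Without Mycl 48 h replicate 1 the smallest was that of Rpl35, 0.000315.

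Rpl5 and Rpl11 form the 5S ribonucleoprotein particle with 5S ribosomal RNA. Outside the ribosome this particle binds Mdm2 and thereby stabilises p53. Rpl5 had 149.0, 166.3 and 155.3 CPM in c-Myc 48 h livers, 377.7, 98.2 and 164.1 CPM in Mycl 48 h livers and 94.5, 76.5 and 78.4 CPM in no dox livers. The induced groups did not overlap the no dox group. The log2 fold change of Rpl5 was 0.92 in c-Myc 48 h livers (SE 0.39, adjusted p = 0.119), and without Mycl 48 h replicate 1 it rose by 0.96 (SE 0.18, adjusted p = 0.00341). Rpl11 had 198.6, 191.7 and 181.7 CPM in c-Myc 48 h livers, 335.7, 114.1 and 170.2 CPM in Mycl 48 h livers and 113.7, 93.0 and 92.4 CPM in no dox livers. Without Mycl 48 h replicate 1 it rose by 0.98 log2 units in c-Myc 48 h livers (SE 0.16, adjusted p = 0.00167), and its value in Mycl 48 h livers was 0.57 (SE 0.17, adjusted p = 0.0939). Among the 12 genes listed for the 5S particle and the p53 pathway, 8 rose and 0 fell in c-Myc 48 h livers, where 11.8% of all tested genes rose. In Mycl 48 h livers 3 rose and 0 fell, where 2.24% of all tested genes rose. These counts were 10 and 4 without Mycl 48 h replicate 1. Cdkn1a, the p21 cell cycle inhibitor, had 31.4, 67.3 and 26.2 CPM in c-Myc 48 h livers, 30.2, 36.7 and 55.1 CPM in Mycl 48 h livers and 4.05, 5.44 and 5.41 CPM in no dox livers. It rose by 3.07 log2 units in c-Myc 48 h livers (adjusted p = 0.000811) and by 3.04 in Mycl 48 h livers (adjusted p = 0.00756), or by 3.27 without replicate 1.

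Rps6 is the small subunit protein phosphorylated by S6 kinases downstream of mTOR. It had 147.3, 160.4 and 158.9 CPM in c-Myc 48 h livers, 297.3, 109.7 and 151.7 CPM in Mycl 48 h livers and 91.3, 76.7 and 78.4 CPM in no dox livers. Every induced liver was above every no dox liver. Its log2 fold changes were 0.92 in c-Myc 48 h livers (SE 0.30, adjusted p = 0.0546) and 1.18 in Mycl 48 h livers (SE 0.30, adjusted p = 0.0648). Rps6 rose in both comparisons, by 0.97 (adjusted p = 0.00095) and by 0.72 (adjusted p = 0.0279), once Mycl 48 h replicate 1 was left out. Of the 14 genes listed for the control of TOP messengers by mTOR, 1 rose in c-Myc 48 h livers, the kinase gene Akt1, where 11.8% of all tested genes rose. In Mycl 48 h livers 0 changed, where 2.24% of all tested genes rose and 0.964% fell. With Mycl 48 h replicate 1 left out, 4 rose and 1 fell in c-Myc 48 h livers, where 18.8% of all tested genes rose and 14.4% fell. Mtor itself had 115.2, 101.1 and 83.4 CPM in c-Myc 48 h livers, 65.1, 102.2 and 106.0 CPM in Mycl 48 h livers and 134.4, 127.8 and 136.9 CPM in no dox livers. Messenger levels say nothing of kinase activity or of translation, which were not measured.

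Rps19, Rps24 and Rps26 are small subunit genes in which human loss-of-function mutations cause Diamond-Blackfan anaemia, and loss of 1 copy of human RPS14 underlies the anaemia of a myelodysplastic syndrome. Rps19 had 107.9, 115.9 and 108.7 CPM in c-Myc 48 h livers, 249.2, 76.0 and 114.2 CPM in Mycl 48 h livers and 63.0, 48.4 and 50.5 CPM in no dox livers. Its log2 fold changes were 1.04 in c-Myc 48 h livers (SE 0.35, adjusted p = 0.0612) and 1.44 in Mycl 48 h livers (SE 0.35, adjusted p = 0.0568). It rose in both, by 1.08 and 0.87, without Mycl 48 h replicate 1. Rps26 had 137.4, 155.1 and 138.0 CPM in c-Myc 48 h livers, 167.1, 113.2 and 175.8 CPM in Mycl 48 h livers and 89.97, 82.1 and 80.0 CPM in no dox livers. Rps26 was one of the genes little affected by Mycl 48 h replicate 1, and it rose by 0.77 in c-Myc 48 h livers (SE 0.17, adjusted p = 0.0131) and by 0.86 in Mycl 48 h livers (SE 0.17, adjusted p = 0.0343), or by 0.84 without replicate 1. Rps24 showed the opposite case: it had 824.5 CPM in Mycl 48 h replicate 1 against 161.6 and 222.7 CPM in the other two, and 219.3 to 231.6 CPM in c-Myc 48 h and 106.1 to 143.3 CPM in no dox livers. Its log2 fold change in Mycl 48 h livers was 1.75 with that library (SE 0.50, adjusted p = 0.0904) and 0.74 without it (SE 0.17, adjusted p = 0.0415). Rps14 had 301.7 to 333.9 CPM in c-Myc 48 h livers, 200.4 to 942.3 CPM in Mycl 48 h livers and 134.0 to 208.4 CPM in no dox livers. Its Mycl 48 h and no dox groups overlapped.

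Rpsa and Rps3 are further small subunit proteins with roles outside the ribosome, Rpsa as a laminin receptor and Rps3 in DNA repair. Rpsa had 420.9, 479.2 and 446.0 CPM in c-Myc 48 h livers, 888.1, 366.3 and 485.5 CPM in Mycl 48 h livers and 258.2, 224.4 and 226.0 CPM in no dox livers. It rose by 0.93 in c-Myc 48 h livers (SE 0.28, adjusted p = 0.0428) and by 1.296 in Mycl 48 h livers (SE 0.29, adjusted p = 0.0407), or by 0.905 without replicate 1 (adjusted p = 0.0169). Rps28 had 91.4, 97.1 and 90.1 CPM in c-Myc 48 h livers, 135.3, 82.0 and 114.6 CPM in Mycl 48 h livers and 58.7, 48.9 and 52.7 CPM in no dox livers. It had the smallest adjusted p of the set in Mycl 48 h livers, 0.0184, at a log2 fold change of 1.05 (SE 0.18). Without replicate 1 its value was 0.93, and Rpl3 and Rps28 had the same smallest adjusted p, 0.0145. Rps3 had 428.2 to 439.0 CPM in c-Myc 48 h livers, 273.8 to 1129 CPM in Mycl 48 h livers and 183.3 to 244.2 CPM in no dox livers, and its groups did not overlap with no dox in either case.

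The largest log2 fold change in c-Myc 48 h livers was that of Rps12, at 1.31 (SE 0.44, adjusted p = 0.0588). Rps12 is a protein of the beak of the small subunit, and its difference from no dox was the highest of the set in each c-Myc 48 h liver. It had 303.3, 350.0 and 296.5 CPM in c-Myc 48 h livers, 837.9, 198.4 and 283.7 CPM in Mycl 48 h livers and 146.1, 114.5 and 122.7 CPM in no dox livers. Rpl36a followed, and it rose by 1.27 (SE 0.26, adjusted p = 0.00766). It had 75.5, 85.7 and 75.3 CPM in c-Myc 48 h livers, 112.4, 49.0 and 80.4 CPM in Mycl 48 h livers and 37.2, 32.7 and 27.8 CPM in no dox livers. Much of the sequence of Rps12 and Rpl36a also occurs in other annotated genes: 16.8% and 14.5% of the 50-base words of their longest transcript occurred in no other annotated gene. Over the set this share ranged from 8.92% to 100%, and 28 of the 77 tested genes were under 50%. How the counting treated reads with several matches is not given in the sources used here, so levels of these genes are uncertain. The median difference from no dox was 0.95, 1.06 and 0.95 for those 28 genes in c-Myc 48 h livers, and 0.85, 0.97 and 0.87 for the other 49.

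Against the shared change of the set, several genes lagged in c-Myc 48 h livers, and not all of them are named here. These were picked out after their values were seen and are given as a description. Rpl35a, a large subunit protein whose human gene is also mutated in Diamond-Blackfan anaemia, differed from the median change of the set by -0.57, -0.58 and -0.53 log2 units in c-Myc 48 h replicates 1 to 3. The same values in Mycl 48 h replicates 1 to 3 were 0.08, -0.49 and -0.64. Rpl35a had 58.3, 62.8 and 60.6 CPM in c-Myc 48 h livers, 201.7, 45.3 and 56.3 CPM in Mycl 48 h livers and 54.6, 42.1 and 44.8 CPM in no dox livers. Rpl34 differed from the median change by -0.76, -0.30 and -0.77 in c-Myc 48 h livers, and had 89.2, 133.8 and 89.4 CPM there, 419.3, 99.5 and 126.1 CPM in Mycl 48 h livers and 94.7, 76.9 and 74.9 CPM in no dox livers. Its c-Myc 48 h and no dox groups overlapped. Rps3a1 differed from the median change by -0.61, -0.005 and -0.60 in c-Myc 48 h replicates 1 to 3, so it lagged little in replicate 2. It had 138.2, 227.7 and 140.2 CPM in c-Myc 48 h livers, 334.1, 154.1 and 210.7 CPM in Mycl 48 h livers and 122.8, 107.9 and 111.0 CPM in no dox livers. Rpl10, Rpl19 and Rpl22 were also below the median change in each c-Myc 48 h liver. In replicates 1 to 3 Rpl10 was at -0.42, -0.45 and -0.30. Rpl19 was at -0.38, -0.43 and -0.27, and Rpl22 at -0.30, -0.50 and -0.34. For Rpl34, Rplp0 and Rps3a1 alike, c-Myc 48 h replicate 2 was the highest of the 3 c-Myc 48 h livers.

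**Figure D3:**
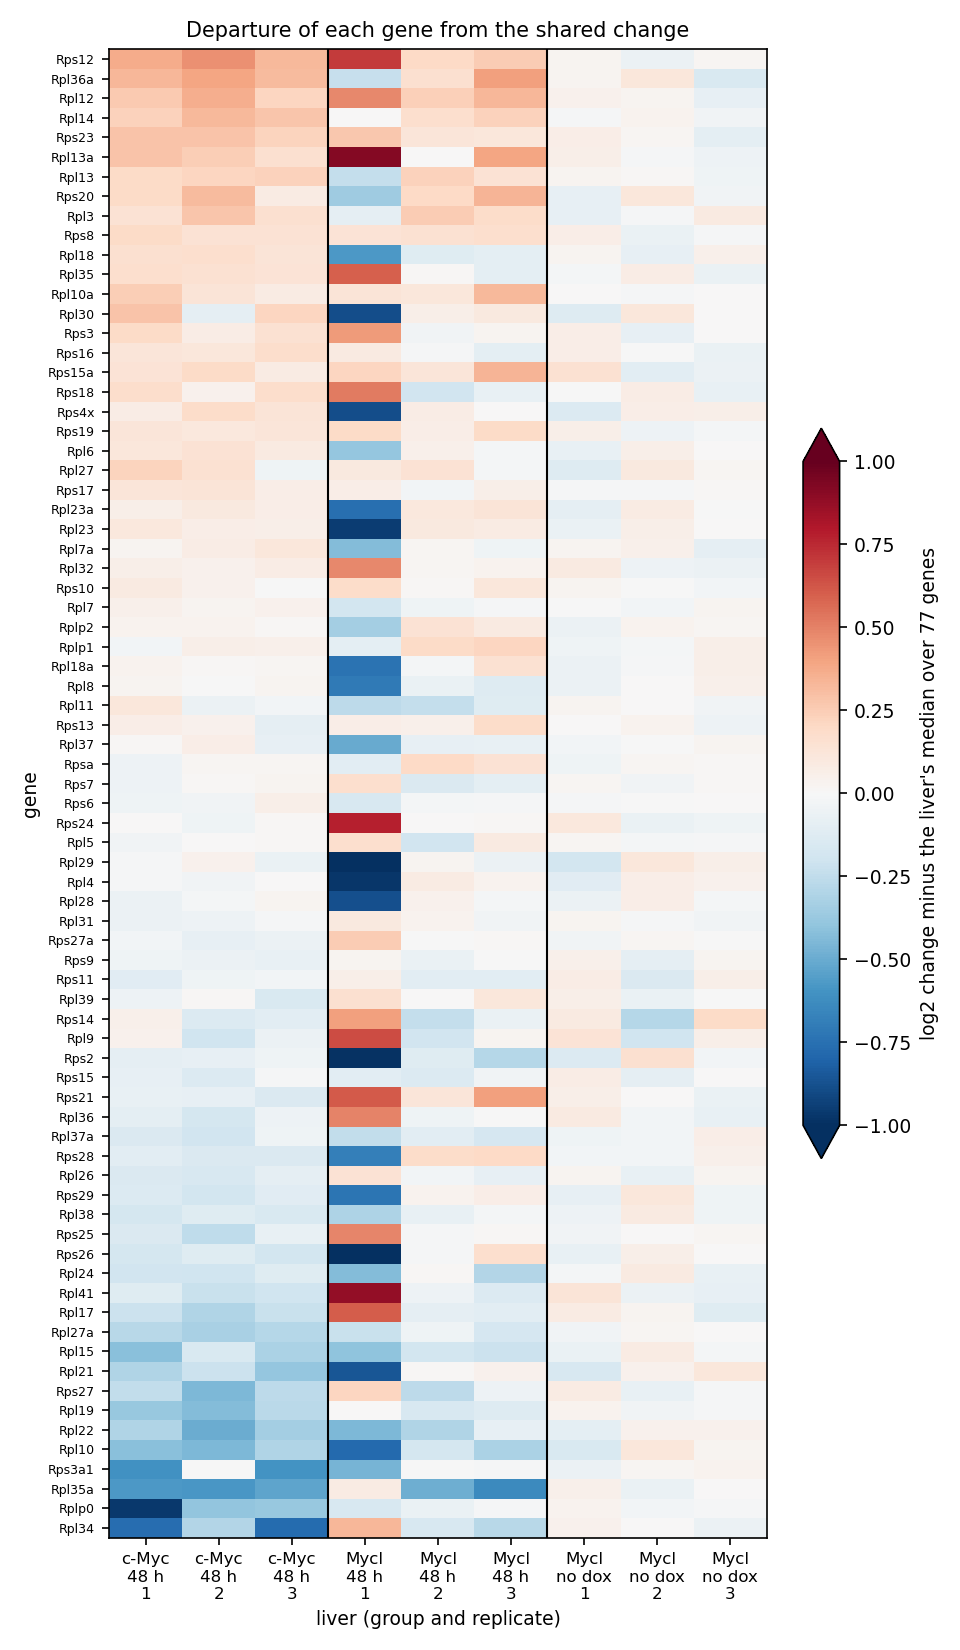
Departure of 76 of the 77 tested genes from the median change of the set in the same liver, in log2 units (red above, blue below, colours clipped at 1), with genes ordered by their mean departure in c-Myc 48 h livers. Rpl35a, Rpl34 and Rplp0 at the foot lie below the median in each c-Myc 48 h liver, at -0.58 to -0.53, -0.77 to -0.30 and -0.97 to -0.38, and the departures in Mycl 48 h replicate 1 are the widest, with an SD of 0.507 over the genes.

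The largest log2 fold change in Mycl 48 h livers was that of Rpl13a, at 1.93 (SE 0.50, adjusted p = 0.0696). Rpl13a is known outside the ribosome as a translational silencer of inflammatory messengers in human monocytes. It had 364.8, 386.4 and 337.8 CPM in c-Myc 48 h livers, 1243, 220.8 and 398.3 CPM in Mycl 48 h livers and 189.6, 150.5 and 149.2 CPM in no dox livers. Without Mycl 48 h replicate 1 it rose by 0.98 (SE 0.22, adjusted p = 0.0396), and the largest value was then that of Rpl36a, at 1.04. Rpl41, which encodes the shortest ribosomal protein, had 151.9 to 161.2 CPM in c-Myc 48 h livers, 699.3, 122.2 and 158.6 CPM in Mycl 48 h livers and 84.3 to 114.7 CPM in no dox livers. Its log2 fold change in Mycl 48 h livers was 1.79 with replicate 1 (SE 0.55, adjusted p = 0.106) and 0.63 without it (SE 0.16, adjusted p = 0.0591). Rps21 was the highest gene relative to no dox in Mycl 48 h replicate 3, by 1.31. It had 102.6, 110.7 and 98.4 CPM in c-Myc 48 h livers, 363.8, 86.1 and 145.5 CPM in Mycl 48 h livers and 68.4, 54.9 and 53.2 CPM in no dox livers, and without Mycl 48 h replicate 1 it rose in Mycl 48 h livers by 1.03 (SE 0.20, adjusted p = 0.0244).

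The levels of different genes can be compared only per length of transcript, here as CPM per kb of the longest annotated transcript over the 3 no dox livers. Among the highest were Rplp1 at 576.1, Rpl4 at 260.5, Rps15 at 234.6 and Rps18 at 229.1 CPM per kb. The lowest were Rpl15 at 31.4, Rpl27 at 28.6, Rpl18 at 28.0, Rps20 at 22.2 and Rps15a at 9.15 CPM per kb. The order depended on the transcript length chosen. With the median annotated transcript in place of the longest, Rps15a moved to rank 62 and Rpl18 to rank 33 of 77, while Rplp1 stayed at rank 1 and Rps20 at rank 77.

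**Figure D4:**
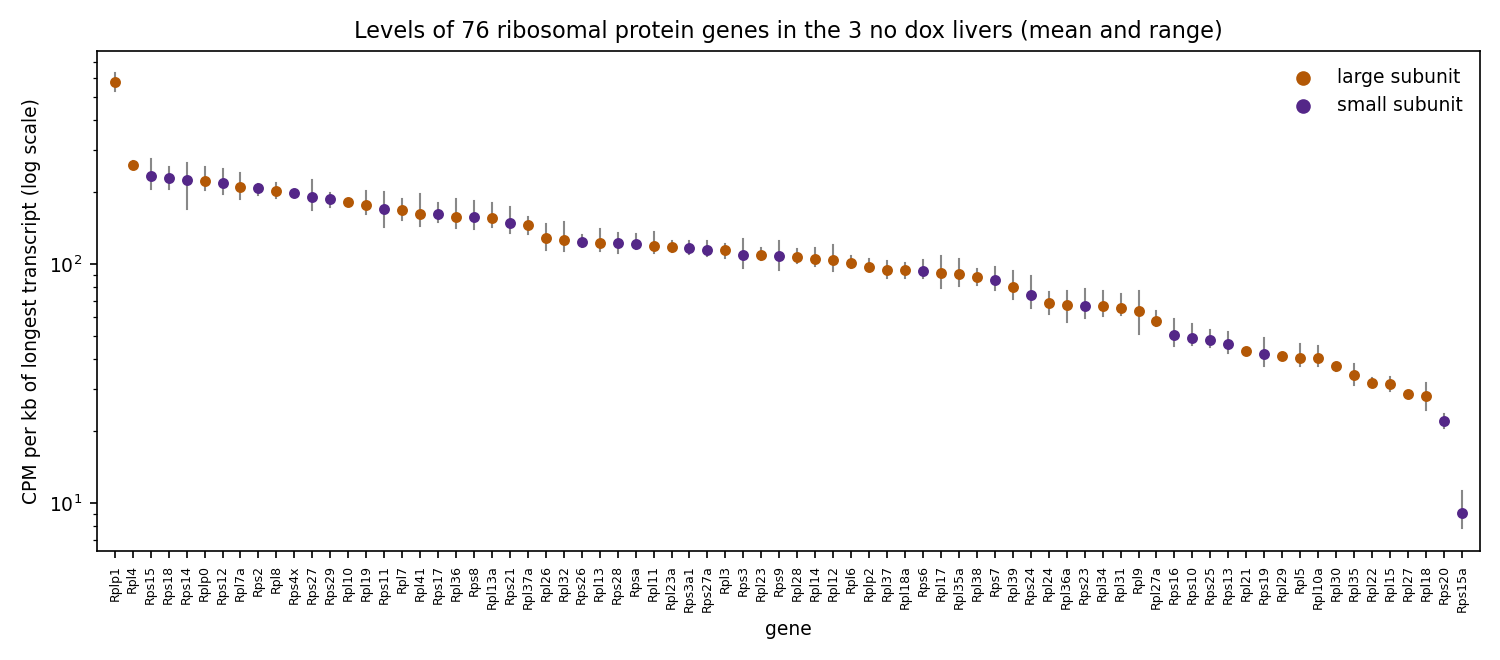
Mean level of 76 of the 77 tested genes over the 3 no dox livers in CPM per kb of the longest annotated transcript, on a log axis, with lines from the lowest to the highest liver and colours for the subunit. Rplp1 is highest at 576.1 and Rps15a lowest at 9.15 CPM per kb.

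The RefSeq start sites (GRCm38.p6) of 58 of the 78 genes were searched from 250 bases before to 50 bases after the start, on both strands unless stated. A TOP start, taken as a C at the start followed on the sense strand by 4 bases that are each C or T, was present in 14 of the 58 genes (24.1%), against 3.0% of all 26742 genes. The ETS core CCGGAA was present in 33 (56.9%), against 16.8% of all genes. The YY1 core AAGATGG was present in 9 (15.5%), against 7.3%, and TATAAA in 6 (10.3%), against 15.6%. The E-box CACGTG was present in 6 (10.3%), against 8.1%. A match is only a match of letters, and an annotated start a few bases from the one in use would miss a TOP motif. The following TOP starts are shown since they are the shared feature of these messengers, 15 bases before and 15 from the start, with the pyrimidine run from the start in capitals.
Rps6, chr4:86857353-86857382, minus strand: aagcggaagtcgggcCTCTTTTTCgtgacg
Rpl35a, chr16:33056467-33056496, plus strand: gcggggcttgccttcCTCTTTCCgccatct
Rpl14, chr9:120571502-120571531, plus strand: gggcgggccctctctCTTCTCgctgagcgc
Rps27, chr3:90213634-90213663, minus strand: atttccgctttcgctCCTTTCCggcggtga
Rpl15, chr14:18270972-18271001, minus strand: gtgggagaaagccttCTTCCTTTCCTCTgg

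These genes differed in their values although all begin with a TOP motif. In c-Myc 48 h livers the log2 fold change was 1.21 for Rpl14, a large subunit protein, and 0.92 for Rps6. It was 0.64 for Rpl15, 0.60 for Rps27 and 0.36 for Rpl35a. Of these 5 only Rpl14 rose in the edgeR test of all 9 livers (adjusted p = 0.0194), where 11.8% of all tested genes rose. All 5 rose without Mycl 48 h replicate 1, where 18.8% of all tested genes rose. The median over the 13 tested genes with a TOP start was 0.92, and over the 44 tested genes with another annotated start it was 0.92. In Mycl 48 h livers the medians were 1.34 and 1.28, and without replicate 1 they were 0.72 and 0.73.

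The E-box is the sequence that MYC and MAX bind, and the 6 sites found are shown, with the E-box in capitals and its first base counted from an annotated start. The 6 sites lay in 8 windows, since those of Rpl19 and Rpl34 are each within the windows of 2 annotated starts, and their offset is given from the nearer one. Rps19 has several annotated starts. Its site lies before only the most downstream of them, from which the offset is counted, and after the others.
Rpl13a at -200, chr7:45128928-45128957, minus strand: cgctccgaaaccCACGTGacatcccgcccc
Rpl14 at -168, chr9:120571337-120571366, plus strand: ccaagctcactgCACGTGtctgaggagaag
Rpl34 at -155, chr3:130730536-130730565, minus strand: cacctaacttctCACGTGacgttcctaccg
Rps19 at -120, chr7:24884781-24884810, plus strand: tggagccgcggcCACGTGcgagcggcaggc
Rpl19 at -19, chr11:98026679-98026708, plus strand: tacccagaggacCACGTGaccaaacgccct
Rpl23 at -3, chr11:97782425-97782454, minus strand: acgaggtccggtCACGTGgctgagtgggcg

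The 6 genes with an E-box spanned nearly the whole range of the set in c-Myc 48 h livers. Their log2 fold changes there were 1.21 for Rpl14, 1.15 for Rpl13a and 1.04 for Rps19. For Rpl23, Rpl19 and Rpl34 they were 1.004, 0.56 and 0.34. Rpl14 and Rpl23 rose in the test, where 11.8% of all tested genes rose. Without Mycl 48 h replicate 1, all of the 6 but Rpl34 rose, where 18.8% of all tested genes rose. With all livers the median of the 6 genes was 1.02, and that of the 51 tested genes whose window has no CACGTG was 0.92. In Mycl 48 h livers the medians were 1.38 and 1.27, and without replicate 1 they were 0.85 and 0.72. Binding was not measured in these files.

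The relatives that the symbol rule leaves out were looked at beside the set. Rack1 had 611.3, 651.3 and 611.2 CPM in c-Myc 48 h livers, 1368, 373.4 and 542.4 CPM in Mycl 48 h livers and 317.6, 242.9 and 271.5 CPM in no dox livers. Its pattern was the most like that of the set. Over the 9 livers Pearson's r between its log2 CPM and the median log2 CPM of the set was 0.993, the highest of all tested genes outside the set. Over the 8 livers without Mycl 48 h replicate 1 the highest was Eef1b2, a subunit of the elongation factor 1 complex, also at 0.993, and Rack1 was at 0.986. The livers fall into 3 groups, so these values are a description of the group differences they share. Fau had 89.5, 87.5 and 99.0 CPM in c-Myc 48 h livers, 270.8, 70.6 and 100.3 CPM in Mycl 48 h livers and 73.6, 59.1 and 63.0 CPM in no dox livers, with a log2 fold change of 0.50 in c-Myc 48 h livers (SE 0.40, adjusted p = 0.409).

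Paralogs of ribosomal protein genes, which are separate genes with related products, varied in their values. Rpl22l1, whose product can replace that of Rpl22, had 53.02, 57.9 and 50.6 CPM in c-Myc 48 h livers, 157.4, 44.0 and 48.4 CPM in Mycl 48 h livers and 37.1, 28.7 and 32.9 CPM in no dox livers. Without Mycl 48 h replicate 1 it rose by 0.76 in c-Myc 48 h livers (adjusted p = 0.00123) and by 0.54 in Mycl 48 h livers (adjusted p = 0.0401). Rps27l, which p53 induces, had log2 fold changes of 0.33 in c-Myc 48 h livers and 1.02 in Mycl 48 h livers, and 0.37 and 0.16 without Mycl 48 h replicate 1. Rpl36al had 32.02 to 37.1 CPM in c-Myc 48 h livers, 30.8 to 83.1 CPM in Mycl 48 h livers and 29.6 to 34.8 CPM in no dox livers, with a log2 fold change of 0.10 in c-Myc 48 h livers (SE 0.31, adjusted p = 0.857). Its parent Rpl36a rose there. The muscle paralog Rpl3l had 1 read over all 9 livers, Rpl39l had 2 and Rpl10l had 0.

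Other parts of the translation machinery were read from lists of known genes. The counts of these lists stand beside 11.8% of all tested genes that rose in c-Myc 48 h livers and 2.24% in Mycl 48 h livers. Of 50 ribosome biogenesis factors, which process ribosomal RNA and assemble the subunits in the nucleolus, 40 rose and 0 fell in c-Myc 48 h livers, with a median log2 fold change of 1.16. In Mycl 48 h livers 1 rose, the chaperone gene Npm1, with a median of 0.25. Directly compared, 24 of the 50 were higher in c-Myc 48 h livers than in Mycl 48 h livers and 0 were lower, with a median of 0.89, where 4.14% of all tested genes were higher, and without Mycl 48 h replicate 1 the count was 22. The count that rose in Mycl 48 h livers was then 2. Ncl, which encodes nucleolin, had 532.4, 708.6 and 344.9 CPM in c-Myc 48 h livers, 121.0, 173.1 and 217.4 CPM in Mycl 48 h livers and 125.1, 133.3 and 124.3 CPM in no dox livers. In the same test 0 of the 77 ribosomal protein genes were called.

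**Figure D5:**
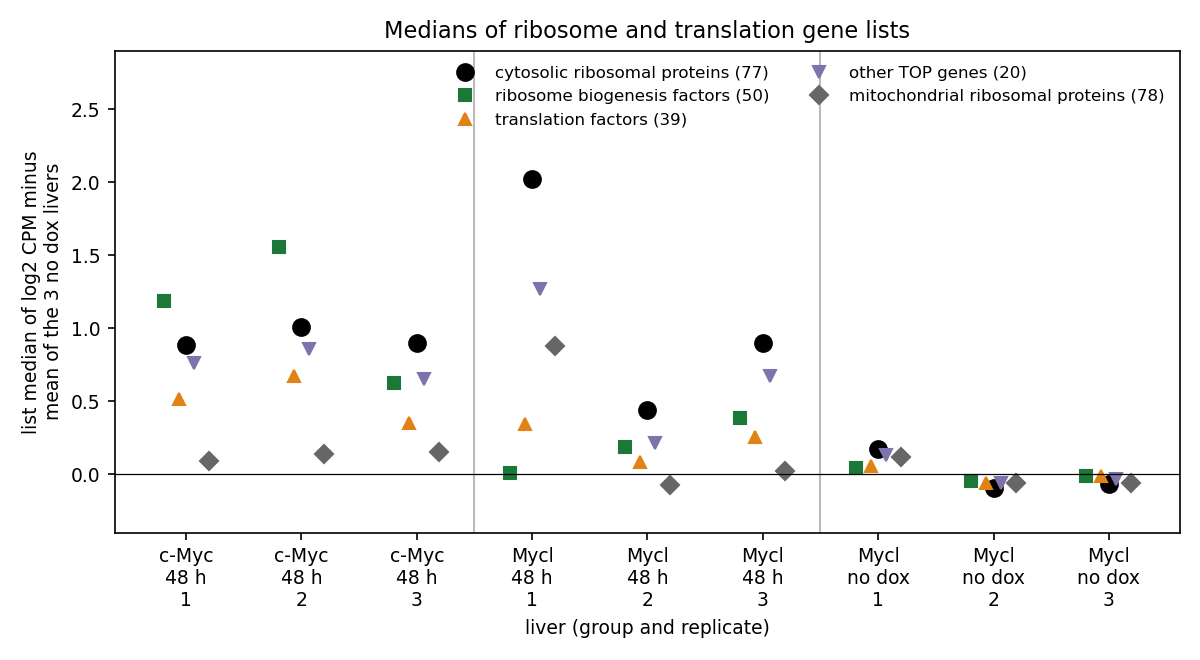
Median difference from the mean of the 3 no dox livers, in log2 CPM, of the 77 cytosolic ribosomal protein genes and of 4 other gene lists, by liver (1 symbol per list and liver, number of genes in the legend). The ribosome biogenesis factors lie at 0.63 to 1.56 in c-Myc 48 h livers and at 0.01 to 0.39 in Mycl 48 h livers, and the ribosomal protein genes at 0.89 to 1.01 in c-Myc 48 h livers and at 0.44 to 2.02 in Mycl 48 h livers.

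Of 12 chaperones and importers that carry newly made ribosomal proteins to the nucleolus, 4 rose in c-Myc 48 h livers and 0 in Mycl 48 h livers, and 4 were higher in c-Myc 48 h than in Mycl 48 h livers. Grwd1, the escort of Rpl3, had 23.7, 36.0 and 13.9 CPM in c-Myc 48 h livers, 9.94, 9.001 and 11.4 CPM in Mycl 48 h livers and 8.59, 7.46 and 8.67 CPM in no dox livers. Of 39 translation factors 16 rose in c-Myc 48 h livers, with a median of 0.52, and 2 rose in Mycl 48 h livers, Eef1g and Eef1b2, or 3 genes without replicate 1. Of 20 TOP messenger genes that encode no ribosomal protein, 11 rose in c-Myc 48 h livers and 4 in Mycl 48 h livers, with medians of 0.75 and 0.83, and without Mycl 48 h replicate 1 the counts were 16 and 6 and the second median was 0.52. The 78 mitochondrial ribosomal protein genes serve the separate ribosome of the mitochondrion. Of these, 4 rose in c-Myc 48 h livers and 0 in Mycl 48 h livers. With all 9 livers their share was thus below that of all tested genes. Their median was 0.11 in c-Myc 48 h livers and 0.34 in Mycl 48 h livers, and the second was 0.01 without Mycl 48 h replicate 1. Leaving out Mycl 48 h replicate 1 moved the counts that rose in c-Myc 48 h livers to 7 for the chaperones and importers, 27 for the translation factors, with 2 others lower, and 18 for the mitochondrial ribosomal protein genes, where 18.8% of all tested genes rose. The share of the mitochondrial ribosomal protein genes that rose in c-Myc 48 h livers was then above that of all tested genes, so its side depended on that 1 liver. In Mycl 48 h replicate 1 the median mitochondrial ribosomal protein gene was 0.88 above the no dox mean, against -0.08 and 0.02 in the other two Mycl 48 h livers.

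Marker lists of liver cell types were read in the same way. In c-Myc 48 h livers 8.88% of all tested genes fell, and 14.4% without Mycl 48 h replicate 1. Of 15 hepatocyte markers 2 fell in c-Myc 48 h livers, or 7 without Mycl 48 h replicate 1, and 0 changed in Mycl 48 h livers. The 11 erythroid markers in the table had summed levels of 52.6 to 105.7 CPM in c-Myc 48 h livers, 153.8 to 544.8 CPM in Mycl 48 h livers and 229.5 to 304.9 CPM in no dox livers, with the highest in Mycl 48 h replicate 1. Of the 8 tested, 6 fell in c-Myc 48 h livers, and Rhag was at 0 in 7 of the 9 livers. The 12 neutrophil and monocyte markers summed to 23.1 to 35.9 CPM in c-Myc 48 h livers, 27.5 to 35.7 CPM in Mycl 48 h livers and 13.1 to 15.1 CPM in no dox livers, with Ly6g at 0 in 7 of the 9 livers, and 3 of 9 tested rose in each induced group, with 1 that fell in c-Myc 48 h livers. The 13 Kupffer cell and macrophage markers summed to 380.2 to 510.0 CPM in c-Myc 48 h livers, 745.5 to 793.3 CPM in Mycl 48 h livers and 528.1 to 603.4 CPM in no dox livers. Of these, 2 fell in c-Myc 48 h livers and 2 rose in Mycl 48 h livers, or 4 without replicate 1. Directly compared, 5 were lower in c-Myc 48 h than in Mycl 48 h livers, or 9 without replicate 1, where 2.63% and 3.73% of all tested genes were lower. The 11 stellate cell markers summed to 1109 to 2285 CPM in c-Myc 48 h livers, 719.1 to 1393 CPM in Mycl 48 h livers and 698.7 to 856.2 CPM in no dox livers, and 4 rose in c-Myc 48 h and 1 in Mycl 48 h livers, or 5 and 2 without replicate 1. Of the 12 endothelial markers 0 changed in the 3 comparisons. With Mycl 48 h replicate 1 left out, 3 of them fell in c-Myc 48 h livers and 2 were lower there than in Mycl 48 h livers. Of 6 tested lymphocyte markers and 6 tested cholangiocyte markers, 1 each fell in c-Myc 48 h livers. The part of these cell types in the ribosomal protein values was not tested.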

How the data were processed

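RNA-seq libraries of 9 livers were made with the NEBNext Ultra II Directional kit from RNA extracted with the RNeasy Plus Mini kit, per the labels' protocols. The submitters' processing notes name DESeq2 1.30.0, HTSeq 0.11.2, STAR 2.7.8a and cutadapt 3.0, with the genome mm10. Not given in the sources used here were the annotation release, the strand setting and how reads with several matches were counted. The authors deposited whole-number counts per gene in 1 table, and every column was matched to a sample by its name. Of the 21703 rows, 21643 were given a symbol from the Ensembl annotation and 60 were not.

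Counts were tested in R 4.3.3 with edgeR 4.0.16 (filterByExpr with a minimum count of 10, TMM scaling, quasi-likelihood test), in 1 fit of the 9 livers with the 3 group means and 6 residual degrees of freedom. P-values were adjusted by Benjamini-Hochberg over the 12651 genes tested, and a gene was called at an adjusted p under 0.05. Fold changes are log2 of the first group over the second, with standard errors from the same fit. Levels are CPM on TMM-scaled library sizes, and log2 CPM used a prior count of 2. DESeq2 1.42.0 and limma-voom (limma 3.58.1), other scalings, no filter, a 1.5-fold threshold, fits of the 6 libraries compared, removal of a trend with transcript length, a replicate block and leaving out each liver were alternatives. Transcript lengths, positions and the share of 50-base words found in no other gene came from the GENCODE M21 annotation of GRCm38, and start-site sequences from RefSeq (GRCm38.p6). The tests were checked on simulated data.

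The labels do not say that the livers came from separate litters or days, and p-values measure the spread between these 9 samples, which may be partly technical. No pair of libraries of a group agreed within sampling noise, with a chi-square per degree of freedom of 10.06 to 201.6. Counts from PCR-amplified reads carry more than counting error.

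Named genes were taken by a fixed rule: a list of genes with known roles, the 5 genes with the largest and the 5 with the smallest fold change and the 3 with the smallest adjusted p in each comparison, the 5 highest and the 5 lowest in level, and the 5 most variable. Rps3a1, Rpl9 and Rpl35 were named after their values were seen. The genes of the set and all lists were chosen with earlier results of these data known. Values of 1 gene of the set and 1 gene beside it are not reported here.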

Additional observations from a re-analysis of the deposited data

Results flagged for a closer look

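No cytosolic ribosomal protein gene met a rule for a closer look. Of the genes named beside them, those below differed between the 2 induced groups by the direct edgeR test of c-Myc 48 h against Mycl 48 h livers. In this test line and factor cannot be told apart. Among ribosome biogenesis factors the log2 difference was 1.63 for Ncl, 1.27 for Nop56, 1.10 for Npm1, 1.04 for Ebna1bp2 and 0.92 for Noc2l. Among the carriers of ribosomal proteins it was 1.28 for Grwd1, 0.98 for Ipo5 and 0.96 for Nap1l1. Of the genes listed for the p53 pathway, it was 1.81 for Eda2r, a receptor gene of the tumour necrosis factor family, and 0.86 for Bbc3, which encodes the cell death protein PUMA. Each was higher in every c-Myc 48 h liver than in every Mycl 48 h liver. Without Mycl 48 h replicate 1, Eda2r no longer passed, at 1.73 (adjusted p = 0.0586), and the other 9 differed by 0.78 to 1.43 and passed.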

How the results depend on the processing

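The sign of all 77 fold changes against no dox livers was positive in each of the alternatives run, and no member fell in any of them, but the number called varied widely. The share of all tested genes that rose varied too and is given in brackets. For Mycl 48 h against no dox livers (24 genes) the number was 40 with no filter (2.19%), 75 with DESeq2 (5.88%) and 69 with limma-voom weighting each library (6.4%). It was 0 at the 1.5-fold threshold (0.553%) and 5 with only the 6 libraries compared (1.91%). With the length trend removed it was 49 (3.02%) and with the replicate block 12 (1.8%). Leaving out 1 liver gave 0 to 76 (0.133% to 4.21%). For c-Myc 48 h against no dox livers (33 genes) it was 64 on library totals (25.1%), 53 with DESeq2 (14.7%) and 74 with weighted limma-voom (22.2%). It was 2 at the 1.5-fold threshold (4.71%) and 75 with the 6 libraries compared (18.8%). With the length trend removed it was 63 (15.3%) and with the replicate block 42 (11.2%). Leaving out 1 liver gave 11 to 75 (7.03% to 18.8%), and a median of 0.92 to 1.05. On library totals the median of this comparison was 1.29, and that of all tested genes was 0.31. The causes were not tested, except that the 1.5-fold threshold asks for a larger change. Weighted limma-voom gave Mycl 48 h replicate 1 a weight of 0.146.

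For c-Myc 48 h against Mycl 48 h livers the median of -0.34 turned to 0.11 with weighted limma-voom, to 0.14 with the length trend removed and to 0.22 without Mycl 48 h replicate 1. Leaving out 1 liver gave a median of -0.63 to 0.22. Combinations chosen after seeing the data, without Mycl 48 h replicate 1, gave medians of 0.22 with TMM computed without the ribosomal protein rows and 0.24 with the length trend removed. In these, 75 genes rose in c-Myc 48 h livers under both, where 19.0% and 19.5% of all tested genes rose. In Mycl 48 h livers 56 and 61 rose, the second with a median of 0.70, where 3.71% and 3.43% of all tested genes rose. In the second, 2 were higher in c-Myc 48 h than in Mycl 48 h livers, where 5.17% of all tested genes were. Among named genes, leaving out 1 liver moved the difference between the 2 induced groups. It ranged over -1.31 to 0.087 for Rpl17, -1.45 to 0.16 for Rpl41 and -1.23 to 0.22 for Rps24. For Rpl18 it ranged over -0.085 to 0.49 and for Rpl30 over -0.0036 to 0.30. The sign was turned only by Mycl 48 h replicate 1 in the first 3 and by replicate 2 in the others. The 2 combinations gave 0.088 and 0.099 for Rpl17, 0.16 and 0.22 for Rpl41, and 0.22 and 0.23 for Rps24, and weighted limma-voom gave 0.043 for Rps24.

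Deviations of livers with the same replicate number correlated at -0.187 to 0.314 over 9 pairs. The highest was that of Mycl 48 h replicate 1 with no dox replicate 1, and the others were at most 0.087, so the numbers were not taken to pair the samples and the replicate block is only an alternative. Counts of 3 livers a group limit what can be called, and genes with a low share of unique sequence have uncertain levels.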
